A study of Mus musculus with 9 samples.

Results

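Coenzyme A is made and broken down by a short set of enzymes, and 10 genes of that set were followed in mouse liver. They are the pantothenate kinases Pank1, Pank2 and Pank3, the later synthesis genes Ppcs, Ppcdc and Coasy, the vanins Vnn1 and Vnn3, and the coenzyme A hydrolases Nudt7 and Nudt19. They were taken by gene name from the deposited table of 54532 genes, and all 10 were found. All 10 also passed the filter on low values, 0.5 FPKM (fragments normalized to gene length and library size) or more in 3 or more libraries.

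The livers came from male wild-type C57BL/6J mice in 3 groups with 3 libraries each. One group ate CDAA-HFD, a choline-deficient, amino acid-defined, high-fat diet that produces steatohepatitis and fibrosis in mice, and received 326E at 30 mg/kg for 6 weeks. Another ate CDAA-HFD and received vehicle, and the last ate chow and received vehicle. The sample titles carry the prefix MCD, also on chow libraries, while the protocol names CDAA-HFD, which is followed here. The series title names ATP citrate lyase, which consumes free coenzyme A to make acetyl-CoA, and the receptor PPARα as targets of 326E. Ages and the number of animals behind a library are not given in the labels.

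Coenzyme A carries acyl groups in fatty acid oxidation and synthesis. It is built from pantothenate, vitamin B5: a pantothenate kinase adds a phosphate in the rate-limiting step, PPCS adds cysteine, PPCDC removes a carboxyl group, and the bifunctional COASY completes the molecule. NUDT7 and NUDT19 cut coenzyme A inside peroxisomes, and vanins split pantetheine outside the cell into pantothenate and cysteamine. In mouse liver, PPARα agonists are known to raise Pank1 and Vnn1.

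Libraries held 13275888 to 17058316 assigned reads, of which each of the 10 genes took between 105 and 17247. Values are FPKM, and means are given ± SD over 3 libraries. A difference between groups is one of mean log2(FPKM + 1), and the figure after its ± is the standard error. This scale understates changes of genes near 1 FPKM. Tests are limma's, over 13737 genes, and a gene was called at a Benjamini-Hochberg adjusted p under 0.05. The labels do not say that libraries are separate animals, so p-values measure the spread between these samples. The 326E and diet comparisons share the vehicle libraries. On the second principal component the vehicle libraries stood at -21.84, -5.28 and -21.99, so replicate 2 stood apart from the other vehicle libraries. The summed level of 7 hepatocyte markers, albumin among them, was 23220 to 32640 FPKM with 326E, 24870 to 39220 FPKM with vehicle and 38770 to 45410 FPKM on chow. That of 8 macrophage markers was 512 to 896 FPKM with 326E, 949 to 1447 FPKM with vehicle and 162 to 177 FPKM on chow. Stellate cell and myofibroblast markers (8 genes) summed to 109.5 to 138 FPKM with 326E, 158 to 217 FPKM with vehicle and 42.2 to 54.6 FPKM on chow. Lymphocyte markers (6 genes) summed to at most 5.61 FPKM in any library. In bulk tissue, fewer cells of a type and less RNA per cell cannot be told apart.

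With 326E, against vehicle on the same diet, 3 of the 10 genes were called higher and 0 lower: Nudt7, Coasy and Ppcs. Of all tested genes, 11.5% were called in this comparison, 4.96% higher and 6.5% lower. The median log2 fold change of the 10 genes was 0.36, against -0.02 over all tested genes. The groups did not overlap for 6 of the 10, against 33% of all tested genes. With vehicle on CDAA-HFD, against chow, 2 of the 10 were called higher, Vnn1 and Vnn3, and 3 lower, Nudt7, Coasy and Pank1. Of all tested genes, 41.6% were called in that comparison, with 20.8% in each direction, so 5 calls among 10 are near the background. The median of the 10 was -0.14, against -0.04 over all tested genes, and 5 of the 10 did not overlap, against 51.9%. With 326E on CDAA-HFD, against chow, 3 of the 10 were called higher, Vnn1, Vnn3 and Ppcs, and 1 lower, Nudt7. The background there was 26.8%, or 14.4% higher and 12.5% lower. The median of the 10 was -0.02, equal to that of all tested genes, and 4 did not overlap, against 45.1%. The 10 genes were chosen with earlier results of these data known, so these counts beside all tested genes are a description.

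**Figure D1:**
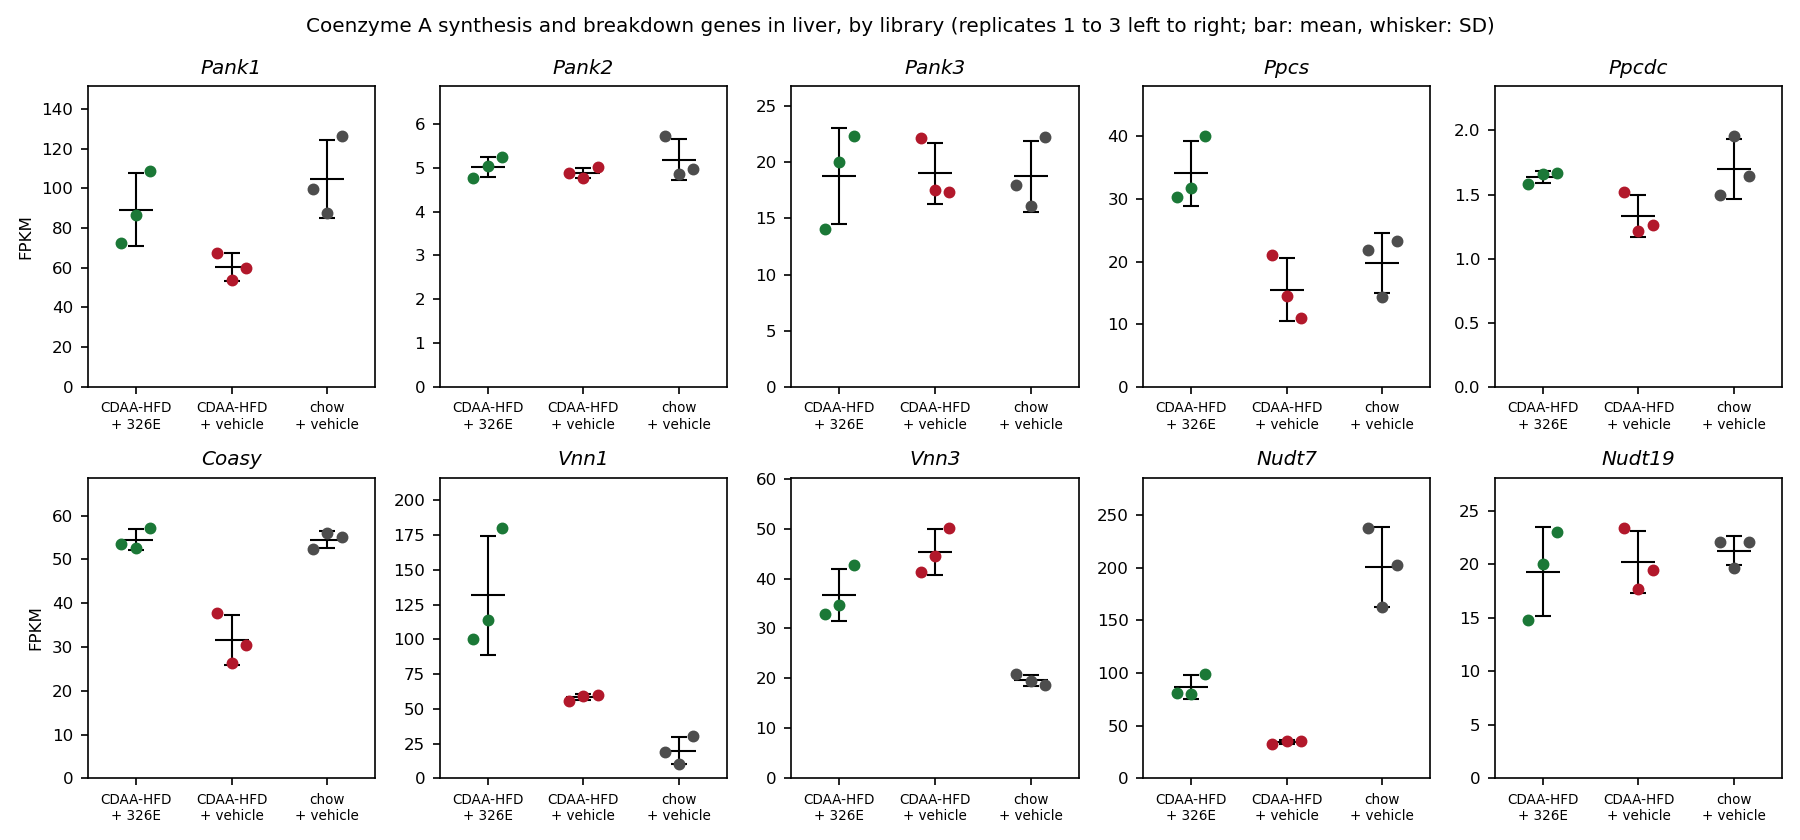
FPKM of each gene (vertical axis, linear from 0) in each of the 9 libraries, grouped as CDAA-HFD with 326E, CDAA-HFD with vehicle and chow with vehicle; points are libraries, dashes the mean and whiskers the SD (n = 3). Coasy with 326E (52.6 to 57.2 FPKM) lay at the chow level, Nudt7 (79.7 to 99.4 FPKM) between vehicle and chow, and Vnn1 (101 to 180 FPKM) above both.

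The order of levels differed between groups. With 326E, Vnn1 (132 FPKM), Pank1 (89.3 FPKM) and Nudt7 (86.5 FPKM) led, with Vnn1 and Pank1 overlapping, and Pank1 and Nudt7 overlapping. Coasy followed apart from its neighbours at 54.5 FPKM, then Vnn3 (36.7 FPKM) and Ppcs (34.1 FPKM), which overlapped, then Nudt19 (19.3 FPKM) and Pank3 (18.8 FPKM), which also overlapped. With vehicle, Pank1 (60.4 FPKM) and Vnn1 (58.5 FPKM) led and overlapped, and Vnn3 (45.3 FPKM) came apart from its neighbours. Nudt7 (34.6 FPKM) and Coasy (31.5 FPKM) overlapped, and so did Nudt19, Pank3 and Ppcs (20.2, 19.0 and 15.5 FPKM). On chow, Nudt7 led at 201 FPKM, apart from Pank1 at 105 FPKM and Coasy at 54.5 FPKM. Nudt19, Vnn1, Ppcs, Vnn3 and Pank3 stood at 21.2, 19.9, 19.8, 19.7 and 18.8 FPKM and overlapped. Pank2 and Ppcdc were the lowest of the 10 in each group, and Ppcdc the lower of the pair.

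Pank1, the most abundant kinase gene in these livers, stood at 72.4, 86.7 and 109 FPKM in 326E livers. It stood at 67.4, 53.6 and 60.1 FPKM in vehicle livers and at 99.8, 87.7 and 126 FPKM in chow livers. The 326E and vehicle libraries did not overlap, and the 326E and chow libraries did. The 326E against vehicle difference was 0.54 ± 0.18 and did not pass (adjusted p = 0.0876). Its 95% interval ran from 0.13 to 0.95. Pank1 fell on the diet, vehicle against chow, by 0.77 ± 0.18 on the log2 scale (adjusted p = 0.00853). Scaling to total assigned reads ended this call (-0.38, adjusted p = 0.0697), as did quantile normalization (-0.43, adjusted p = 0.07). Against chow, 326E livers differed by -0.23 ± 0.18 (adjusted p = 0.385), with a 95% interval from -0.64 to 0.18, and the sign turned under these same scalings. The 7 hepatocyte markers had a median of -0.74 for vehicle against chow, and their part in the Pank1 fall was not tested.

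Pank1 lies on chromosome 19 (ENSMUSG00000033610, mm10, 34810894 to 34879455, minus strand). Its deposited gene length is 3692 bases. GENCODE vM21 on the same build extends it to 34806940 with 8267 exonic bases, and that added stretch lies outside the deposited gene model. RefSeq (GRCm38.p6) lists a pair of start sites for Pank1. The windows from 250 bases before to 50 bases after each start, chr19:34879406-34879705 and chr19:34877868-34878167 on the minus strand, are shown because Pank1 gives most of the kinase signal. Capitals mark the TATA motif TATAAA on either strand.
Pank1 upstream start: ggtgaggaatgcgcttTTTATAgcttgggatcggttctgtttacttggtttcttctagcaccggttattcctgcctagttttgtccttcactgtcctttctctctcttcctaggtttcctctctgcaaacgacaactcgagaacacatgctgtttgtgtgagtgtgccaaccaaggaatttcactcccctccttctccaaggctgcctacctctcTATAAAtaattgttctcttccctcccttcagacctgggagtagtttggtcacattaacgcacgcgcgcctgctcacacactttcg
Pank1 downstream start: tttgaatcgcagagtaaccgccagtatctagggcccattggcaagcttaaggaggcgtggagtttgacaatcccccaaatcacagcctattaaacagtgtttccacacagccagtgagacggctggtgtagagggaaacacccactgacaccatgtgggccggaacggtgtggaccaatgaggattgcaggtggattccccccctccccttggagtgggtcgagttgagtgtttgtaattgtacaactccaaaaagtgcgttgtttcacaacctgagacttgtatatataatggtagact
The upstream start has TATAAA 35 bases before it and its reverse complement 234 bases before it, and the downstream window has none. TATAAA occurs on either strand in 13.6% of all promoter windows.

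Pank2, whose human counterpart is mutated in a neurodegenerative disease with brain iron, stood at 4.77, 5.05 and 5.24 FPKM with 326E. It stood at 4.89, 4.78 and 5.01 FPKM with vehicle and at 5.73, 4.87 and 4.97 FPKM on chow. All groups overlapped, and 326E differed from vehicle by 0.03 ± 0.08 (adjusted p = 0.846; 95% interval -0.16 to 0.22). The diet difference was -0.07 ± 0.08 (adjusted p = 0.553; 95% interval -0.26 to 0.12). Scaled to total assigned reads it turned to 0.26 and passed (adjusted p = 0.0486), where the median over every tested gene was itself 0.25 instead of -0.04. In GENCODE vM21, 22.9% of the exonic bases of Pank2 are shared with Rnf24 on the opposite strand and Gm14233 on the same strand, so its reads are uncertain.

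Pank3, a further kinase of liver, stood at 14.0, 20 and 22.3 FPKM with 326E. It stood at 22.2, 17.5 and 17.4 FPKM with vehicle and at 18.0, 16.1 and 22.3 FPKM on chow. The groups overlapped throughout. The difference was -0.03 ± 0.19 for 326E against vehicle (adjusted p = 0.928; 95% interval -0.45 to 0.39). It was 0.02 ± 0.19 for vehicle against chow (adjusted p = 0.938; 95% interval -0.40 to 0.44).

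Summed over Pank1, Pank2 and Pank3, kinase transcripts came to 113 ± 22.6 FPKM with 326E, 84.3 ± 9.4 FPKM with vehicle and 129 ± 22.8 FPKM on chow. Pank1 made up 78.9 ± 1.18% of this sum with 326E, 71.6 ± 1.14% with vehicle and 81.3 ± 0.863% on chow. The shares did not overlap between any pair of groups: 77.6 to 79.8% with 326E, 70.6 to 72.9% with vehicle and 80.7 to 82.3% on chow. Pank3 made up most of the rest, 16.6, 22.5 and 14.6% on average with 326E, with vehicle and on chow.

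**Figure D2:**
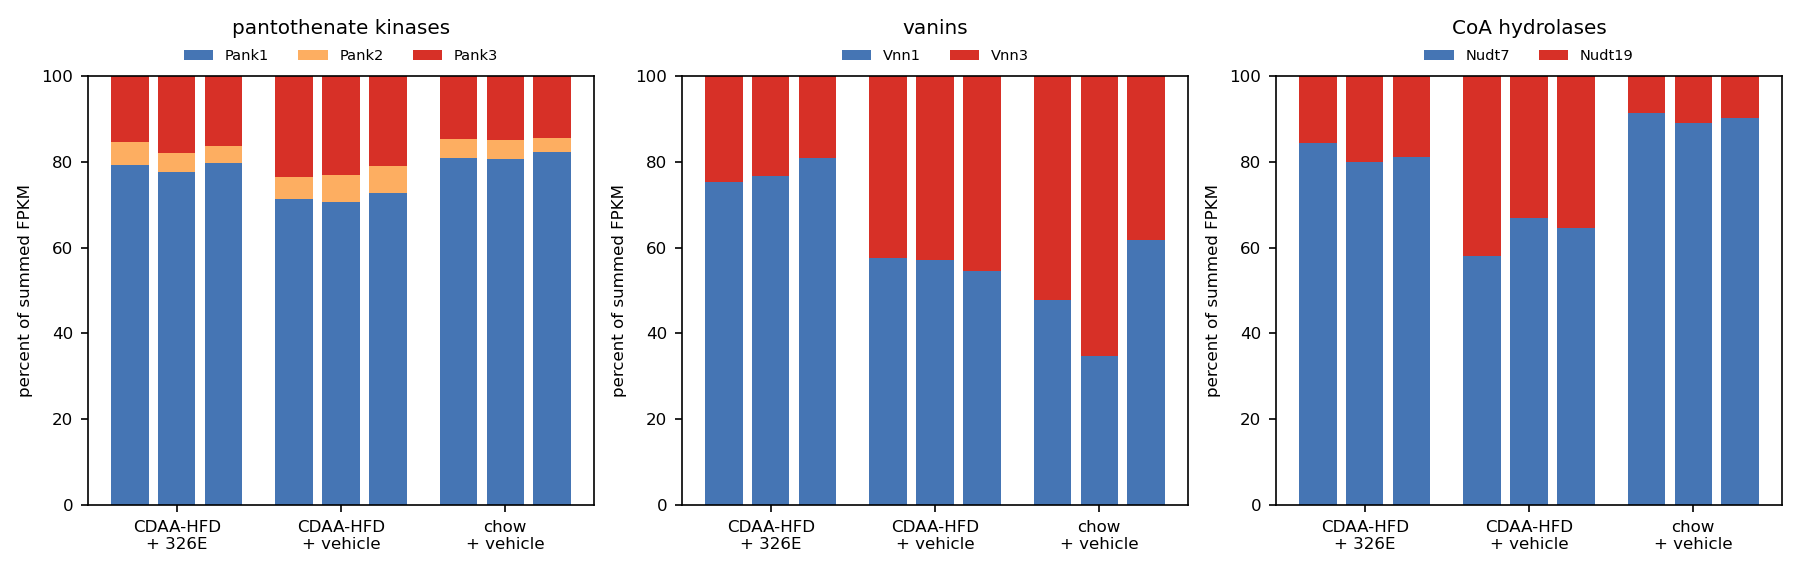
Share of the summed FPKM (percent, vertical axis) of each gene among the pantothenate kinases, vanins and coenzyme A hydrolases; each bar is 1 library, in groups of 3. Pank1 held 70.6 to 72.9% of kinase FPKM with vehicle, below the other groups, and Nudt7 held 58.0 to 66.9% of hydrolase FPKM with vehicle, also below the other groups.

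Ppcs, whose product joins cysteine to phosphopantothenate, stood at 30.4, 31.8 and 40.1 FPKM with 326E. It stood at 21.0, 14.4 and 11.1 FPKM with vehicle and at 21.9, 14.4 and 23.3 FPKM on chow. Every 326E library lay above every vehicle and chow library, while vehicle and chow overlapped. Ppcs rose with 326E by 1.12 ± 0.24 against vehicle (adjusted p = 0.0205), a ratio of mean FPKM of 2.20. It rose by 0.77 ± 0.24 against chow (adjusted p = 0.0433), and the diet difference was -0.35 ± 0.24 (adjusted p = 0.275; 95% interval -0.90 to 0.19). The 326E against vehicle call ended at an adjusted p of 0.0594 when 326E replicate 2 was left out, of 0.0718 for 326E replicate 3 and of 0.0596 for vehicle replicate 3. It also ended with no filter on low values (0.0524). With vehicle replicate 2 as the lone vehicle library, and so no replication in that group, the 326E against vehicle difference was 1.175. The call against chow was lost without any 1 of 7 libraries (adjusted p = 0.0507 to 0.123), with no filter (adjusted p = 0.0951) and with replicate numbers as a block (adjusted p = 0.0618).

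Ppcs (ENSMUSG00000028636) lies on chromosome 4 at 119418530 to 119422420 on the minus strand. Its RefSeq promoter window, chr4:119422371-119422670 on the minus strand, is shown because Ppcs is the synthesis gene that was called above both vehicle and chow. Capitals mark AGGTCA, the core hexamer of sites for nuclear receptors such as PPARα, searched on both strands.
Ppcs promoter: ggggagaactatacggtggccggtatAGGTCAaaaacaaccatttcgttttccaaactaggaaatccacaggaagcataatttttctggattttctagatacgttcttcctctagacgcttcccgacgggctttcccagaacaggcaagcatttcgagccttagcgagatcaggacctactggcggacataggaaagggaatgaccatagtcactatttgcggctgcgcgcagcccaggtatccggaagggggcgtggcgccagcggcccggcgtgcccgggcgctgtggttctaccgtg
The hexamer begins 224 bases before the start. AGGTCA occurs in 16.3% of all 300-base windows. The Ppcdc window also holds it, beginning 27 bases after the start, and Ppcdc was not called in any comparison. A role of the hexamer in the Ppcs rise was not tested.

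Ppcdc, the decarboxylase of the pathway, was the lowest of the 10 genes, at 1.58, 1.66 and 1.67 FPKM with 326E. It stood at 1.52, 1.21 and 1.26 FPKM with vehicle and at 1.5, 1.96 and 1.65 FPKM on chow. The 326E libraries lay just above the vehicle libraries. The difference was 0.18 ± 0.10 (adjusted p = 0.26; 95% interval -0.04 to 0.40). The diet difference was -0.21 ± 0.10 (adjusted p = 0.112), and it passed with quantile normalization (-0.38, adjusted p = 0.0155). At a length of 50 bases, 11% of the stretches in annotated Ppcdc transcripts also occur in transcripts of other genes, and Ppcdc had 105 to 174 reads per library.

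Coasy encodes the enzyme of the last synthesis steps. It stood at 53.5, 52.6 and 57.2 FPKM with 326E, at 37.7, 26.4 and 30.5 FPKM with vehicle, and at 52.3, 56.1 and 55.1 FPKM on chow. Every vehicle library lay below every 326E and chow library, and the 326E and chow libraries overlapped. Coasy rose with 326E by 0.78 ± 0.13 against vehicle (adjusted p = 0.00683), a ratio of mean FPKM of 1.73. It fell on the diet, vehicle against chow, by 0.78 ± 0.13 (adjusted p = 0.00119). Means of 326E and chow livers were 54.5 ± 2.44 and 54.5 ± 1.95 FPKM, and the 95% interval of their difference ran from -0.29 to 0.28 (adjusted p = 0.995). Scaled to total assigned reads, this last difference became 0.36 (adjusted p = 0.0475), against a median of 0.235 over all genes under that scaling. For vehicle against chow, the 7 hepatocyte markers had a median of -0.74, and 5 of them were called lower. Their part in the Coasy fall was not tested. Coasy (ENSMUSG00000001755) lies on chromosome 11 at 101082565 to 101086619 and overlaps no exon of another gene in GENCODE vM21.

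Vnn1 encodes a membrane-anchored pantetheinase. It stood at 101, 114 and 180 FPKM with 326E, at 55.8, 59.4 and 60.2 FPKM with vehicle, and at 19.1, 10.3 and 30.1 FPKM on chow. The groups did not overlap, with chow lowest and 326E highest. Vnn1 rose on the diet, vehicle against chow, by 1.63 ± 0.34 (adjusted p = 0.00449), and with 326E against chow by 2.74 ± 0.34 (adjusted p = 0.000679). The ratio of mean FPKM was 6.63 for 326E against chow. The difference of 326E from vehicle was 1.11 ± 0.34, a ratio of 2.25, and did not pass (adjusted p = 0.0664; 95% interval 0.35 to 1.87). It passed under 6 of 20 alternative settings, among them voom on whole reads (adjusted p = 0.0479), only the libraries of the comparison (adjusted p = 0.0271) and without chow replicate 2 (adjusted p = 0.0238). Over the 20 settings its adjusted p ran from 0.0238 to 0.343. With vehicle replicate 2 as the lone vehicle library, and so no replication in that group, the diet difference was 1.65.

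Vnn3, the neighbouring vanin gene, stood at 32.8, 34.7 and 42.7 FPKM with 326E. It stood at 41.3, 44.5 and 50.2 FPKM with vehicle and at 20.9, 19.4 and 18.7 FPKM on chow. Both CDAA-HFD groups lay above chow, and they overlapped with each other. Vnn3 rose on the diet, vehicle against chow, by 1.16 ± 0.12 (adjusted p = 0.000117), and with 326E against chow by 0.86 ± 0.12 (adjusted p = 0.00127). For 326E against vehicle the difference was -0.30 ± 0.12 (adjusted p = 0.144; 95% interval -0.57 to -0.03). Myeloid cells also express vanins, and the macrophage marker sums given above were highest in vehicle livers and lowest on chow, in the same order as Vnn3. Neutrophil markers summed to 18.8 to 32.5 FPKM with 326E, 34.8 to 61.4 FPKM with vehicle and 5.25 to 26.0 FPKM on chow, and the defining neutrophil marker Ly6g had 0 reads in all vehicle and chow libraries. Of the 8 macrophage markers, 7 were called higher in vehicle livers than on chow and 6 lower with 326E than with vehicle. The part of these cells in the Vnn3 values was not tested.

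Vnn3 (ENSMUSG00000020010) lies on chromosome 10 at 23851462 to 23869843 and Vnn1 (ENSMUSG00000037440) at 23894688 to 23905343, on the plus strand, with 24.8 kb and 0 annotated genes between them. They share 0 stretches of 50 bases with any other gene, so reads of that length would not be split between them. Vnn1 made up 77.6 ± 2.87% of the vanin FPKM with 326E, 56.4 ± 1.62% with vehicle and 48.1 ± 13.5% on chow. The 326E libraries, 75.4 to 80.9%, lay above all others. The promoter window of Vnn3, chr10:23851212-23851511, is shown because Vnn3 rose in both comparisons with chow. It holds 4 CpG pairs, against a median of 7 over all windows, and like the downstream Pank1 window no TATA motif, nuclear receptor hexamer or GC box, so that it has no capitals.
Vnn3 promoter: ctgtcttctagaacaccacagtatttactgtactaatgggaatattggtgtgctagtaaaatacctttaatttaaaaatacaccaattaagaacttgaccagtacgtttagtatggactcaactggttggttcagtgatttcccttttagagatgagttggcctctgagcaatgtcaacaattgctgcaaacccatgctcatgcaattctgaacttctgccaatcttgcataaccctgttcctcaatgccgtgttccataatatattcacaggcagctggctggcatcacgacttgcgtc

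Nudt7, the peroxisomal coenzyme A hydrolase of liver, had the largest changes of the 10 genes in the diet and 326E against vehicle comparisons. It stood at 80.5, 79.7 and 99.4 FPKM with 326E, at 32.4, 35.8 and 35.6 FPKM with vehicle, and at 238, 162 and 203 FPKM on chow. The groups did not overlap, and 326E lay between vehicle and chow. Nudt7 rose with 326E by 1.29 ± 0.15 against vehicle (adjusted p = 0.00233), a ratio of mean FPKM of 2.5. Vehicle livers held 0.172 of the chow mean, and the diet change was -2.49 ± 0.15 (adjusted p = 9.56e-06). With 326E Nudt7 was also lower than on chow (-1.20 ± 0.15, adjusted p = 0.000778). The 326E against vehicle call was kept in 19 of 20 settings. In the remaining setting, with vehicle replicate 2 as the lone vehicle library and so no replication in that group, the difference was 1.24. The median sum of the 7 hepatocyte markers was highest on chow, as was Nudt7. Unlike Nudt7, the sums of vehicle livers overlapped with those of 326E livers and with those of chow livers. Of the 7 markers, 5 were called lower in vehicle livers than on chow. Albumin, the largest part of the sum, was not (-0.30, adjusted p = 0.467). The part of hepatocyte RNA in the Nudt7 diet change was not tested.

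Nudt7 (ENSMUSG00000031767) lies on chromosome 8 at 114133557 to 114154739 on the plus strand. The window chr8:114133324-114133623 at the first of its RefSeq starts is shown because Nudt7 had the largest change of the 10 genes with 326E against vehicle. Capitals mark the GC box GGGCGG, searched on both strands.
Nudt7 promoter: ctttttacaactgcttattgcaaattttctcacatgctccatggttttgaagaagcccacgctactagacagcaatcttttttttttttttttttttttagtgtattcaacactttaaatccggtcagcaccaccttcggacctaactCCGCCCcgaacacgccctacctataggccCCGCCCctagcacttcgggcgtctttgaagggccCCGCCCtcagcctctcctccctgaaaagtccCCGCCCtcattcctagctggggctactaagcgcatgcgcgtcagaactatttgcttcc
It holds 4 GC boxes, each as the reverse complement, and GGGCGG occurs in 35.7% of all windows. Windows were available for 8 of the 10 genes, and Vnn1 and Coasy were not matched. A direct repeat of AGGTCA with 1 base between the copies, the form bound by PPARα with its partner RXR, was searched on both strands. The closest match in the printed windows had 5 mismatches for Nudt7, 4 for Ppcs and both Pank1 starts, and 3 for Vnn3. Of all windows, 24.6% hold a match with up to 3 mismatches. The Ppcdc window holds one with 2 mismatches, as do 3.86% of all windows at up to 2.

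Nudt19, a further peroxisomal hydrolase that is abundant in mouse kidney, stood at 14.8, 20 and 23.0 FPKM with 326E. It stood at 23.4, 17.7 and 19.5 FPKM with vehicle and at 22, 19.7 and 22 FPKM on chow. All groups overlapped. The difference was -0.08 ± 0.16 for 326E against vehicle (adjusted p = 0.796; 95% interval -0.44 to 0.29) and -0.08 ± 0.16 for vehicle against chow (adjusted p = 0.732; 95% interval -0.44 to 0.29). Both intervals exclude changes as large as those of Nudt7. In GENCODE vM21, 35% of its exonic bases are shared with B230322F03Rik on the opposite strand, and the strand setting of the counting is not stated, so its level is uncertain. Kidney tubule markers, 6 genes, summed to at most 0.125 FPKM with 326E, 0.113 FPKM with vehicle and 0.142 FPKM on chow.

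Hydrolase transcripts, Nudt7 and Nudt19 together, came to 106 ± 14.6 FPKM with 326E, 54.8 ± 1.15 FPKM with vehicle and 222 ± 39.1 FPKM on chow. Nudt7 made up 81.9 ± 2.32% of them with 326E, 63.2 ± 4.61% with vehicle and 90.3 ± 1.18% on chow, without overlap between groups. Nudt8, which encodes a mitochondrial coenzyme A hydrolase, had at most 4 reads in a library and was not tested.

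**Figure D3:**
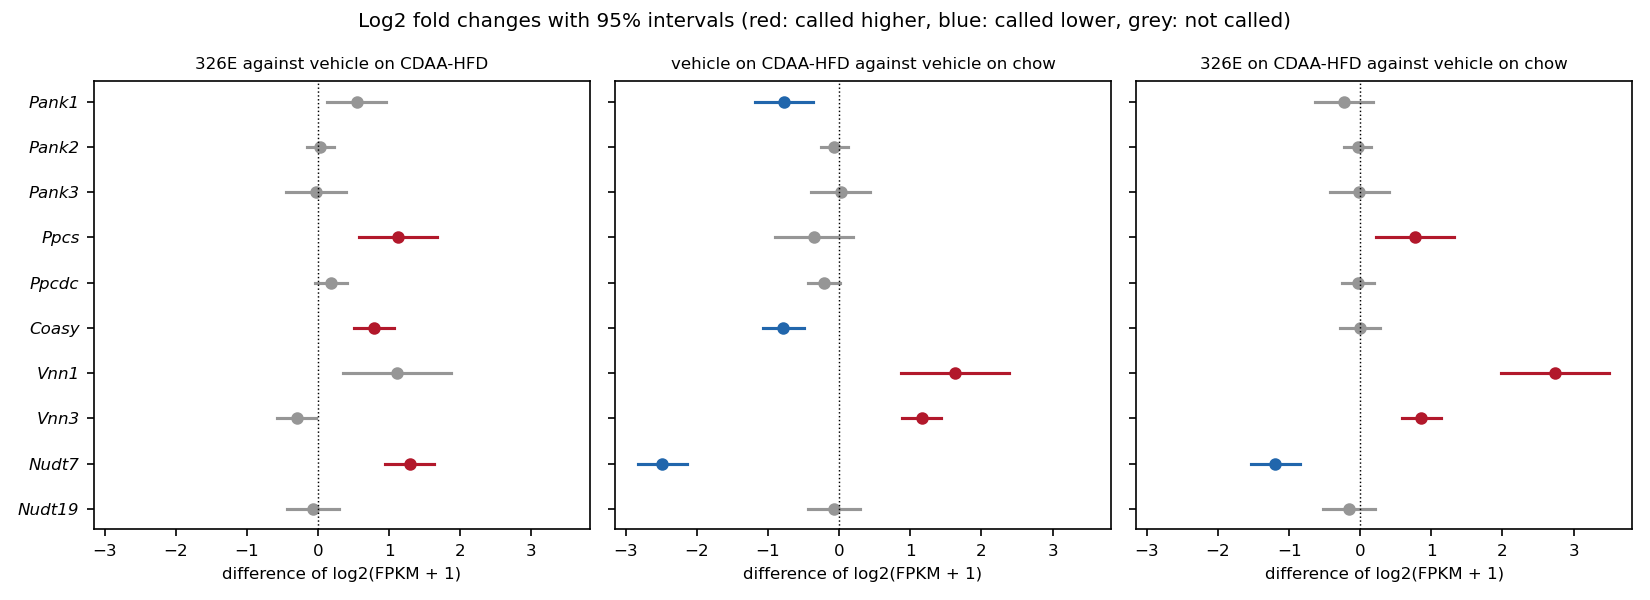
Log2 fold changes (difference of log2(FPKM + 1), horizontal axis) of the 10 genes in the 3 comparisons with 95% intervals; red was called higher, blue lower and grey not called at an adjusted p under 0.05. Nudt7 and Coasy stand right of 0 for 326E against vehicle (1.29 and 0.78) and left of 0 for vehicle against chow (-2.49 and -0.78); these comparisons share the vehicle libraries.

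Around these genes, 15 others of the pathway were listed: pantothenate uptake, relatives of the synthesis enzymes, carriers of coenzyme A, enzymes that can cut it or recycle biotin, and the paths from cysteamine and from cysteine to taurine. Of these, 14 were tested, all but Nudt8. This list was also chosen with earlier results of these data known, so its counts beside all tested genes are a description. With 326E, against vehicle, 3 of the 14 were called higher and 1 lower, where 4.96% of all tested genes were called higher and 6.5% lower (11.5% in all). Their median was 0.15, against -0.02 over all tested genes. On the diet, vehicle against chow, 2 were called higher and 7 lower, where the background was 41.6%, with 20.8% in each direction. Their median was -0.45, against -0.04 over all tested genes and -0.74 over the 7 hepatocyte markers. The part of hepatocyte RNA in the falls of these neighbours was not tested. For 326E against chow, 2 were called higher and 3 lower, where the background was 26.8%, or 14.4% higher and 12.5% lower. Their median was -0.02, equal to that of all tested genes.

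Slc5a6, the transporter that takes up pantothenate and biotin, stood at 9.39 to 9.50 FPKM with 326E, 6.84 to 9.63 FPKM with vehicle and 2.69 to 3.92 FPKM on chow. It rose on the diet, vehicle against chow, by 1.09 ± 0.14 (adjusted p = 0.000416) and with 326E against chow by 1.23 ± 0.14 (adjusted p = 0.000548). Between 326E and vehicle the difference was 0.15 ± 0.14 (adjusted p = 0.552). Dcakd, which resembles dephospho-CoA kinase, rose with 326E by 0.67 ± 0.10 against vehicle (adjusted p = 0.00628) and by 0.73 ± 0.10 against chow (adjusted p = 0.0013). Its diet difference was 0.06 ± 0.10 (adjusted p = 0.651), which passed under scaling to total assigned reads (0.43, adjusted p = 0.0317). Pank4, a kinase relative that lacks kinase activity, was not called in any comparison (-0.15, 0.03 and -0.12 for 326E against vehicle, vehicle against chow and 326E against chow). Aasdhppt, which moves phosphopantetheine from coenzyme A onto carrier proteins, was called lower on the diet (-0.50 ± 0.17, adjusted p = 0.0418). That call was lost in 11 of 20 settings.

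Slc25a42, the mitochondrial coenzyme A carrier, stood at 22.9, 23.7 and 26.2 FPKM with 326E, at 15.1, 15.0 and 10.2 FPKM with vehicle, and at 22.6, 19.3 and 27.4 FPKM on chow. The vehicle libraries lay below all others. Slc25a42 rose with 326E by 0.83 ± 0.17 against vehicle (adjusted p = 0.0171) and fell on the diet, vehicle against chow, by 0.75 ± 0.17 (adjusted p = 0.00675). The first call was lost without 326E replicate 2 (adjusted p = 0.0559) or 3 (adjusted p = 0.0611). The second was lost under scaling to total assigned reads (-0.37, adjusted p = 0.13). With vehicle replicate 2 as the lone vehicle library, the differences were 0.66 for 326E against vehicle and -0.58 for vehicle against chow. Slc25a17, the peroxisomal carrier of coenzyme A and related cofactors, fell on the diet by 0.68 ± 0.09 (adjusted p = 0.000324). With 326E it was lower than on chow (-0.86 ± 0.09, adjusted p = 0.000256), and its difference from vehicle was -0.17 ± 0.09 (adjusted p = 0.226). Slc25a16, of the same carrier family, fell on the diet by 0.67 ± 0.14 (adjusted p = 0.00446), a call that ended under scaling to total assigned reads (-0.29, adjusted p = 0.0753).

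Csad, whose enzyme makes hypotaurine from cysteine sulfinate, had the largest change of the listed genes with 326E against vehicle. It stood at 63.8, 52.2 and 72.2 FPKM with 326E, at 19.5, 8.36 and 9.39 FPKM with vehicle, and at 51.2, 18.0 and 49.5 FPKM on chow. The 326E libraries lay above all others, and vehicle and chow overlapped through chow replicate 2. The 326E against chow difference was not called (0.78 ± 0.41, adjusted p = 0.197; 95% interval -0.16 to 1.71). Csad rose with 326E by 2.33 ± 0.41 against vehicle (adjusted p = 0.0101). With vehicle replicate 2 as the lone vehicle library, this difference was 2.755. The diet change was -1.55 ± 0.41 (adjusted p = 0.0154) and no longer passed when any 1 of vehicle replicates 2 and 3 or chow replicates 1 and 3 was left out (adjusted p of 0.0525, 0.05, 0.0556 and 0.0544, in that order). Ado, which oxidizes the cysteamine released by vanins, gave -0.14 ± 0.11 for 326E against vehicle (adjusted p = 0.43) and 0.27 ± 0.11 for vehicle against chow (adjusted p = 0.0716). Cdo1, which forms cysteine sulfinate, was below chow with 326E (-1.05 ± 0.26, adjusted p = 0.0162). Leaving out 326E replicate 2 ended this call (adjusted p = 0.0633), as did scaling to total assigned reads (0.0545) and quantile normalization (-0.42, adjusted p = 0.166). Every 326E library of Cdo1 lay below every vehicle library, a difference of -0.65 ± 0.26 (adjusted p = 0.136; 95% interval -1.23 to -0.07). That difference passed with quantile normalization (-0.80, adjusted p = 0.0331). The diet difference of Cdo1 was -0.40 ± 0.26 (adjusted p = 0.246). Fmo1, which oxidizes hypotaurine to taurine, was not called: -0.18 for 326E against vehicle, 0.36 for vehicle against chow and 0.18 for 326E against chow. Scaled to total assigned reads, Ado and Fmo1 passed as higher in both comparisons with chow. For vehicle against chow, Fmo1 also passed with quantile normalization (0.53, adjusted p = 0.0194) and without vehicle replicate 1 (0.49, adjusted p = 0.0419), and Ado without chow replicate 1 (0.38, adjusted p = 0.019).

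Enpp1 and Enpp3, cell surface enzymes that split nucleotides and can cut coenzyme A outside the cell, moved in opposite directions on the diet. Enpp1 rose on the diet, vehicle against chow, by 0.52 ± 0.10 (adjusted p = 0.0033) and was called lower with 326E against vehicle (-0.41 ± 0.10, adjusted p = 0.0345), a call lost in 11 of 20 settings. Enpp3 fell on the diet by 1.39 ± 0.16 (adjusted p = 0.000169) and stayed below chow with 326E (-1.23 ± 0.16, adjusted p = 0.00076). Btd, a biotin-recycling relative of the vanins, fell on the diet by 0.51 ± 0.13 (adjusted p = 0.0121), a call that ended under scaling to total assigned reads (-0.13, adjusted p = 0.485) and under quantile normalization (0.0623 as adjusted p). With vehicle replicate 2 as the lone vehicle library, the diet differences were -0.51 for Btd and 0.48 for Enpp1. The Dcakd difference of 326E from vehicle was then 0.57.

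**Figure D4:**
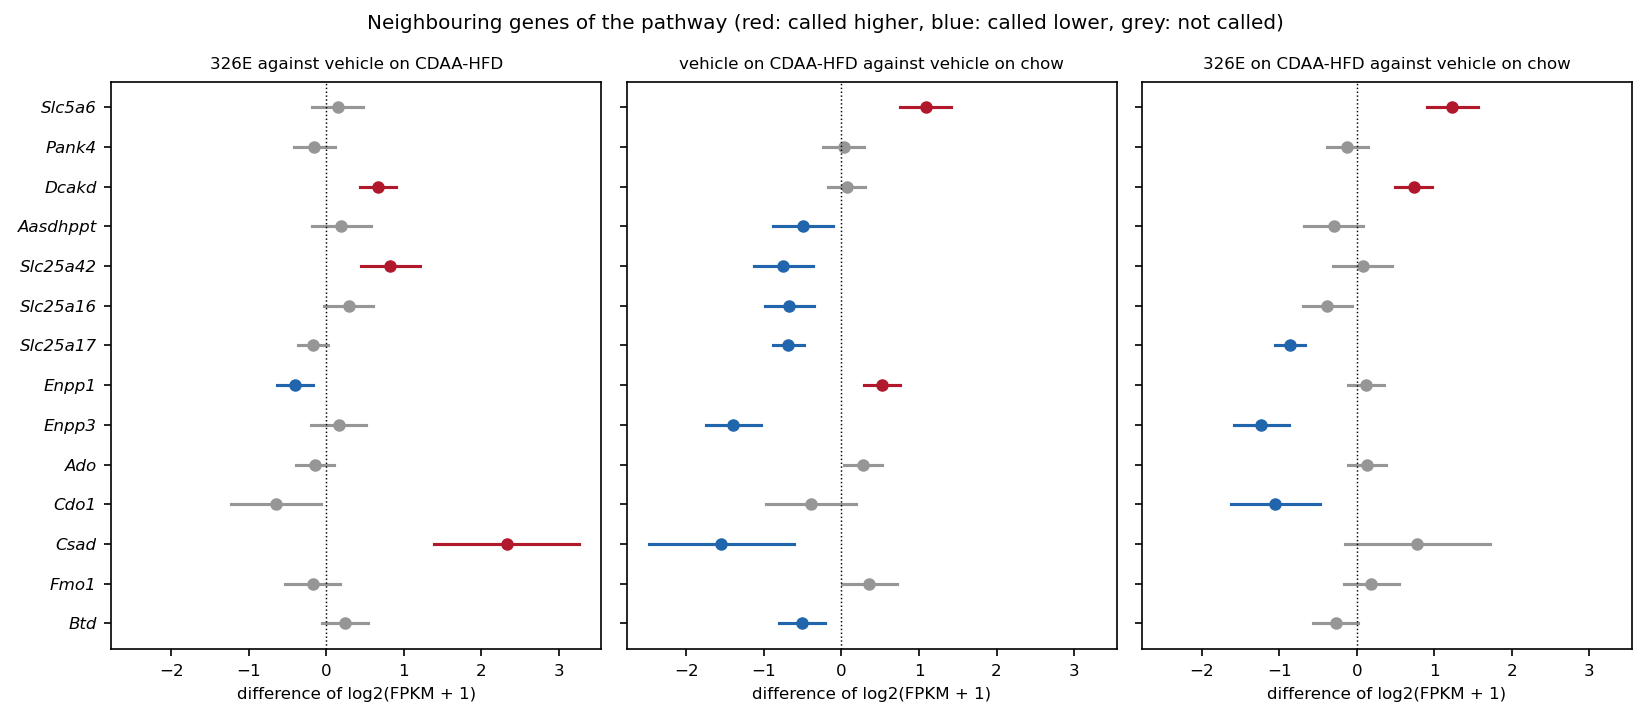
Log2 fold changes (difference of log2(FPKM + 1), horizontal axis) with 95% intervals of the 14 tested neighbouring genes in the 3 comparisons; red was called higher, blue lower and grey not called. Csad stands farthest right for 326E against vehicle (2.33), and Enpp3 is left of 0 in both comparisons with chow (-1.39 and -1.23).

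The protein-coding genes whose log2(FPKM + 1) followed each of 4 members most closely over the 9 libraries were ranked by Pearson's r. The 9 libraries share 3 groups, so these values are a description. For Nudt7 they were Dolk (0.993), Fahd1 (0.991) and Glo1 (0.989). For Pank1 they were Chpt1 (0.983), Atp5mpl (0.975) and Opa1 (0.971). For Vnn1 they were Pip4p2 (0.974), Add3 (0.974) and Qpct (0.968). For Nudt19, which was not called in any comparison, they were Slc25a13 (0.956), Twistnb (0.931) and Ube2w (0.921). Pearson's r does not measure the size of a change. With 326E, with vehicle and on chow, Pip4p2 stood at 10.7, 9.21 and 7.96 FPKM, against 132, 58.5 and 19.9 FPKM for Vnn1. In the same order Dolk stood at 7.64, 6.03 and 9.13 FPKM and Glo1 at 111, 67.4 and 210 FPKM. Nudt7 stood at 86.5, 34.6 and 201 FPKM.

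Within the 326E group, replicate 3 held the highest value of each of the 10 genes, against 38.3% of all tested genes. Replicate 1 held the lowest of 8, against 38%. This order depends on the scaling: the deposited library sizes were 1.15, 1.12 and 1.01 of the assigned reads for 326E replicates 1 to 3. Scaled to total assigned reads, replicate 3 was not the highest for Coasy, Pank2, Pank3 or Ppcdc. In the vehicle group, replicate 1 was highest for 6 (34.6% of all tested genes) and replicate 2 lowest for 5 (33.7%). On chow, replicate 2 was lowest for 7 (36.9%). Without 326E replicate 3, the 326E against vehicle differences were 0.86 for Vnn1, 1.0 for Ppcs and 1.19 for Nudt7, and 2 of the 10 genes were called, Coasy and Nudt7.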

How the data were processed

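The data are 9 poly(A) RNA-seq libraries of mouse liver. Per the submitters' processing notes, reads were aligned with HISAT2 to mm10 and counted with featureCounts; versions, annotation and strand setting are not given in the sources used here. The deposited values are FPKM per gene. The library sizes behind them are proportional to median-of-ratios factors and are 0.828 to 1.19 of the total assigned reads, and all values came out as whole reads (within 0.01 read).

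Groups were taken from the labels. Genes at 0.5 FPKM or more in 3 or more libraries were fitted on log2(FPKM + 1) with limma 3.58.1 (variance trend, R 4.3.3), all 9 libraries in 1 fit, with Benjamini-Hochberg adjustment and a threshold of 0.05; the code was tested on simulated data. Python 3.11.15, pandas 2.3.3, numpy 2.4.6 and matplotlib 3.10.9 made the summaries and plots. The depth, 13275888 to 17058316 assigned reads, makes 1 read in a gene of 2 kb worth 0.0246 to 0.0455 FPKM. All 10 genes and 15 listed neighbours were named whatever their values, and the 3 protein-coding genes most like each of 4 members by Pearson's r. Members and lists were chosen with earlier results of these data known. Marker lists covered hepatocytes (7 of 8 symbols matched), macrophages, neutrophils, stellate cells, lymphocytes and kidney tubule.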

Additional observations from a re-analysis of the deposited data

How the results depend on the processing

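Over the single genes, 1440 values were recomputed under 20 alternative settings: 1319 kept direction and side of the threshold, 59 calls were lost, 18 were gained and 44 changed sign. None of those 44 was called in the reported analysis, and Pank2 for vehicle against chow and Coasy for 326E against chow passed with the new sign when scaled to total assigned reads. Scaled to total assigned reads, the median of all genes moved from -0.04 to 0.25 for vehicle against chow and from -0.02 to 0.235 for 326E against chow, and calls higher went from 50% to 84.1% and from 53.5% to 86.9%. Under this scaling the vehicle against chow values turned to 0.26 for Pank2, 0.024 for Ppcs, 0.028 for Ppcdc and 0.30 for Nudt19. Those of 326E against chow turned to 0.13 for Pank1, 0.27 for Pank2, 0.34 for Pank3, 0.20 for Ppcdc, 0.36 for Coasy, 0.19 for Nudt19, 0.15 for Pank4, 0.035 for Aasdhppt and 0.080 for Btd. Neighbours called against chow became 5 higher and 3 lower for vehicle, and 5 higher for 326E. With quantile normalization, vehicle against chow gave 0.069 for Nudt19, -0.093 for Pank4 and 0.38 for Cdo1, 326E against chow gave 0.10 for Pank1, 0.12 for Pank3 and 0.20 for Coasy, and 2 neighbours were lower with 326E than with vehicle. That count was 0 with no filter, with only the libraries of the comparison and with the replicate block. With vehicle replicate 2 as the lone vehicle library, 326E against vehicle gave 0.072 for Pank3 and 0.10 for Nudt19. Vehicle against chow then gave -0.082 for Pank3 and -0.10 for Pank4. This setting was chosen after seeing the data, and its lone sample is assumed to vary like the other groups. It has no replication in the vehicle group, so effect sizes alone are given for it, though its calls are part of the totals above. The causes were not tested.

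Leaving out 1 library at a time gave 2 to 4 members higher for 326E against vehicle and 2 to 3 for 326E against chow. Neighbours ranged from 2 to 3 higher and 0 to 1 lower for 326E against vehicle, 2 to 3 higher and 5 to 7 lower for vehicle against chow, and 2 to 4 lower for 326E against chow. Values that changed sign ranged, for 326E against vehicle, from -0.21 to 0.092 (Nudt19) and -0.16 to 0.15 (Pank3). For 326E against chow they ranged from -0.037 to 0.023 (Coasy), -0.29 to 0.015 (Nudt19), -0.074 to 0.024 (Pank2), -0.14 to 0.18 (Pank3), -0.085 to 0.037 (Ppcdc) and -0.039 to 0.20 (Slc25a42). For vehicle against chow they ranged from -0.18 to 0.0092 (Nudt19), -0.089 to 0.14 (Pank3) and -0.015 to 0.11 (Pank4).

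Same-numbered libraries did not deviate together (correlations of -0.244 to 0.0236), and differently numbered ones gave -0.181 to 0.193. No pairing by number was seen, but deviations from a mean of 3 libraries cannot exclude one. The replicate block left 2 members higher for 326E against chow and 1037 genes called for 326E against vehicle, against 1574 without it. With 3 libraries a group, a gene that was not called is not shown to be equal between groups.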
